A study of Sus scrofa with 9 samples.

Results

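Potassium channel genes were examined in hearts of wild-type miniature pigs (Sus scrofa). The genes are those whose symbol starts with KCN in the deposited count table and whose mean was at least 1 CPM (counts scaled to a library total of 1000000) over the 9 libraries. Of 30942 genes in the table, 94 carried such a symbol and 30 reached the minimum. All 30 also passed the filter on low counts and were tested. The rule used the mean level over all libraries and no difference between groups. A gene near the minimum can still reach it through the group where it was highest, as KCNG2 and KCNQ5 did. Just inside the minimum were KCNJ12 at 1.03 and KCNQ5 at 1.05 CPM, and just outside were KCNA7 at 0.790 and KCNC4 at 0.742 CPM. The 64 genes below the minimum included 8 with no count in any library.

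The study holds 3 groups of 3 libraries, all from heart of animals labelled wild type: vehicle, doxorubicin, and doxorubicin plus formononetin, called the combination below. Doxorubicin is an anthracycline chemotherapy drug known for its toxicity to heart muscle, and formononetin is a plant isoflavone. No group received formononetin alone, so its effect without doxorubicin was not measured. The labels give neither dose nor duration, nor which chamber was taken, nor how old the pigs were or their sex.

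Potassium channels let potassium leave the cell, and in heart muscle these outward currents end the action potential and hold the resting voltage. Voltage-gated channels are built from pore subunits (the KCNA, KCNB, KCND, KCNH and KCNQ families) with auxiliary subunits (KCNE, KCNIP and KCNAB) that set their trafficking and gating. Inward rectifiers (KCNJ) stabilise the resting potential, and some of them open with falling ATP or with vagal signals. Calcium-activated channels (KCNMA, KCNMB and KCNN) and leak channels (KCNK) complete the set, and several of these are known from vessels rather than heart muscle cells.

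Library totals ranged from 16291952 to 17549359 counts, and the 30 genes together held 15728 to 23468 counts per library. Levels below are CPM scaled by TMM (a factor per library that removes differences in composition), given in the order of replicates 1, 2 and 3, with the mean ± SD over n = 3 libraries where a single value stands for a group. The combination replicate 2 stood apart, with 14766 genes detected against 18107 to 19304 in the other libraries. All libraries share 1 estimate of the spread, and calls of the potassium channel genes that change without this library are named beside the result. The share of counts from mitochondrial genes was 20.7% to 21.3% with vehicle, 23.3% to 24.4% with doxorubicin and 26.1%, 22.0% and 28.8% in the combination, and its part in the results below was not tested. Unless another tool is named, passing or not passing refers to the edgeR quasi-likelihood test. Whether each library stands for its own pig is unstated, so the p-values reflect variation among libraries that could be technical. In bulk tissue, fewer cells of a type and less RNA per cell cannot be told apart.

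Levels between genes were compared per length, as TMM-scaled CPM per kb of the gene length deposited by the authors. The highest vehicle means were those of KCNE1 (61.4 ± 0.256 CPM per kb), the regulatory subunit of the slow delayed rectifier, KCNJ4 (57.7 ± 15), the inward rectifier Kir2.3, KCNIP2 (53.7 ± 8.64), a calcium-binding subunit of the transient outward channels, and KCNJ8 (44.9 ± 2.52), the Kir6.1 pore of ATP-sensitive channels. Neighbours in this order differed by less than their spread, apart from KCNIP2 and KCNJ8, whose means differed by about the SD of KCNIP2. KCNJ3, KCNA5, KCNQ1, KCNH2, KCNJ5 and KCNJ2 followed with vehicle means between 7.43 and 17.8 CPM per kb. The remaining 20 genes had vehicle means from 0.0523 (KCNQ5) to 2.50 (KCNJ11) CPM per kb. The deposited length of KCNJ2 is 16180 bases and that of KCNE1 is 939 bases, so the order rests partly on which exons the authors counted.

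**Figure D1:**
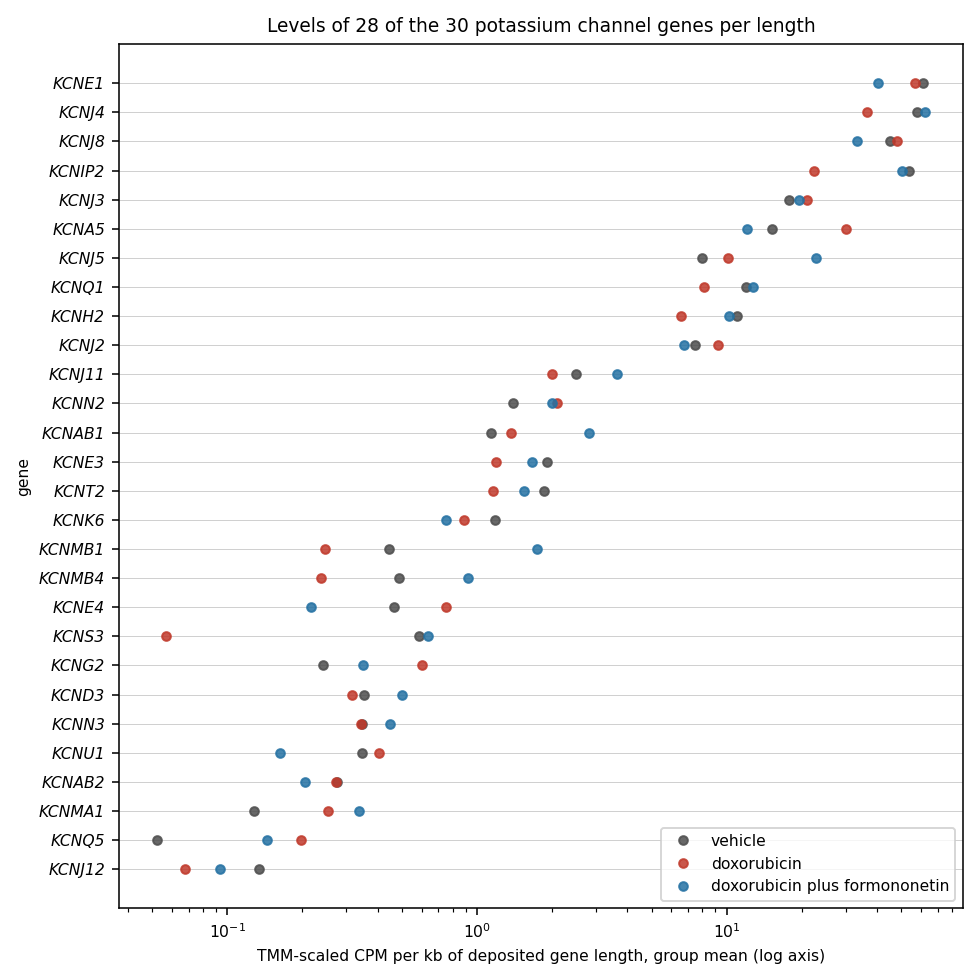
Group means of 28 of the 30 potassium channel genes as TMM-scaled CPM per kb of deposited gene length on a log axis, 1 row per gene and 1 point per group (n = 3 libraries each). KCNE1, KCNJ4, KCNJ8 and KCNIP2 lie at the top, and KCNS3 shows the widest gap between doxorubicin and the other groups.

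With doxorubicin against vehicle, which asks how the drug changed these transcripts, most of these genes did not pass the test. Of 30 genes 5 fell (KCNIP2, KCNH2, KCNQ1, KCNJ4 and KCNS3) and 1 rose (KCNA5) at an adjusted p under 0.05 by the edgeR quasi-likelihood test. Among all 14846 genes tested 33.3% passed, 17.0% lower and 16.3% higher, so the share of falls is near the background and that of rises is below it. The 2 groups did not overlap for 13 of the 30 genes, where 55.3% of all genes did not. The median log2 fold change was -0.13 over the 30 genes and -0.002 over all genes tested. DESeq2 called 9, adding KCNJ2, KCNG2 and KCNMA1 as higher, and limma-voom called 6. Over all genes these tools called 36.5% and 33%. Without the combination replicate 2, where 43.8% of all genes passed, the count was 12, with 6 up and 6 down. It then held the 6 genes above and KCNJ2, KCNE4, KCNG2, KCNMA1 and KCNQ5 as higher and KCNE3 as lower. KCNG2 and KCNQ5 averaged below 1 CPM with vehicle, so they could enter the set only through higher values in other groups. The same 12 passed when only the libraries of these 2 groups were fitted, where 45.6% of all genes did.

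In the combination against doxorubicin alone, which asks what formononetin added, 9 of the 30 genes rose and 5 fell. Over all genes tested 28.1% passed, 14.7% higher and 13.5% lower. The 2 groups did not overlap for 14 of the 30 genes, against 42.2% of all genes. The 9 were KCNIP2, KCNJ4, KCNH2, KCNQ1, KCNS3, KCNAB1, KCNJ11, KCNMB1 and KCNMB4, and the 5 were KCNA5, KCNJ2, KCNJ8, KCNE1 and KCNE4. The median log2 fold change was 0.41 over the 30 genes and -0.01 over all genes tested. This comparison shares its doxorubicin libraries with the one against vehicle, so an opposite sign in both is not independent evidence, and the values of each group are given side by side below.

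Comparing the combination with vehicle, 0 of 30 genes passed by the edgeR quasi-likelihood test, where 1.76% of all genes did, 0.956% higher and 0.808% lower. The 2 groups did not overlap for 9 of the 30, against 23.6% of all genes. At an unadjusted p under 0.05 there were 7 (KCNAB1, KCNE1, KCNE4, KCNJ8, KCNJ11, KCNMA1 and KCNMB1). DESeq2 called 4 (KCNAB1, KCNE1, KCNJ8 and KCNMA1) and limma-voom called 0, where they called 5.04% and 1.28% of all genes. Leaving out the combination replicate 3 gave 3 calls (KCNAB1, KCNMA1 and KCNMB1), and leaving out replicate 1 gave 1 (KCNE1). Of all genes 3.04% and 0.787% passed in these fits.

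**Figure D2:**
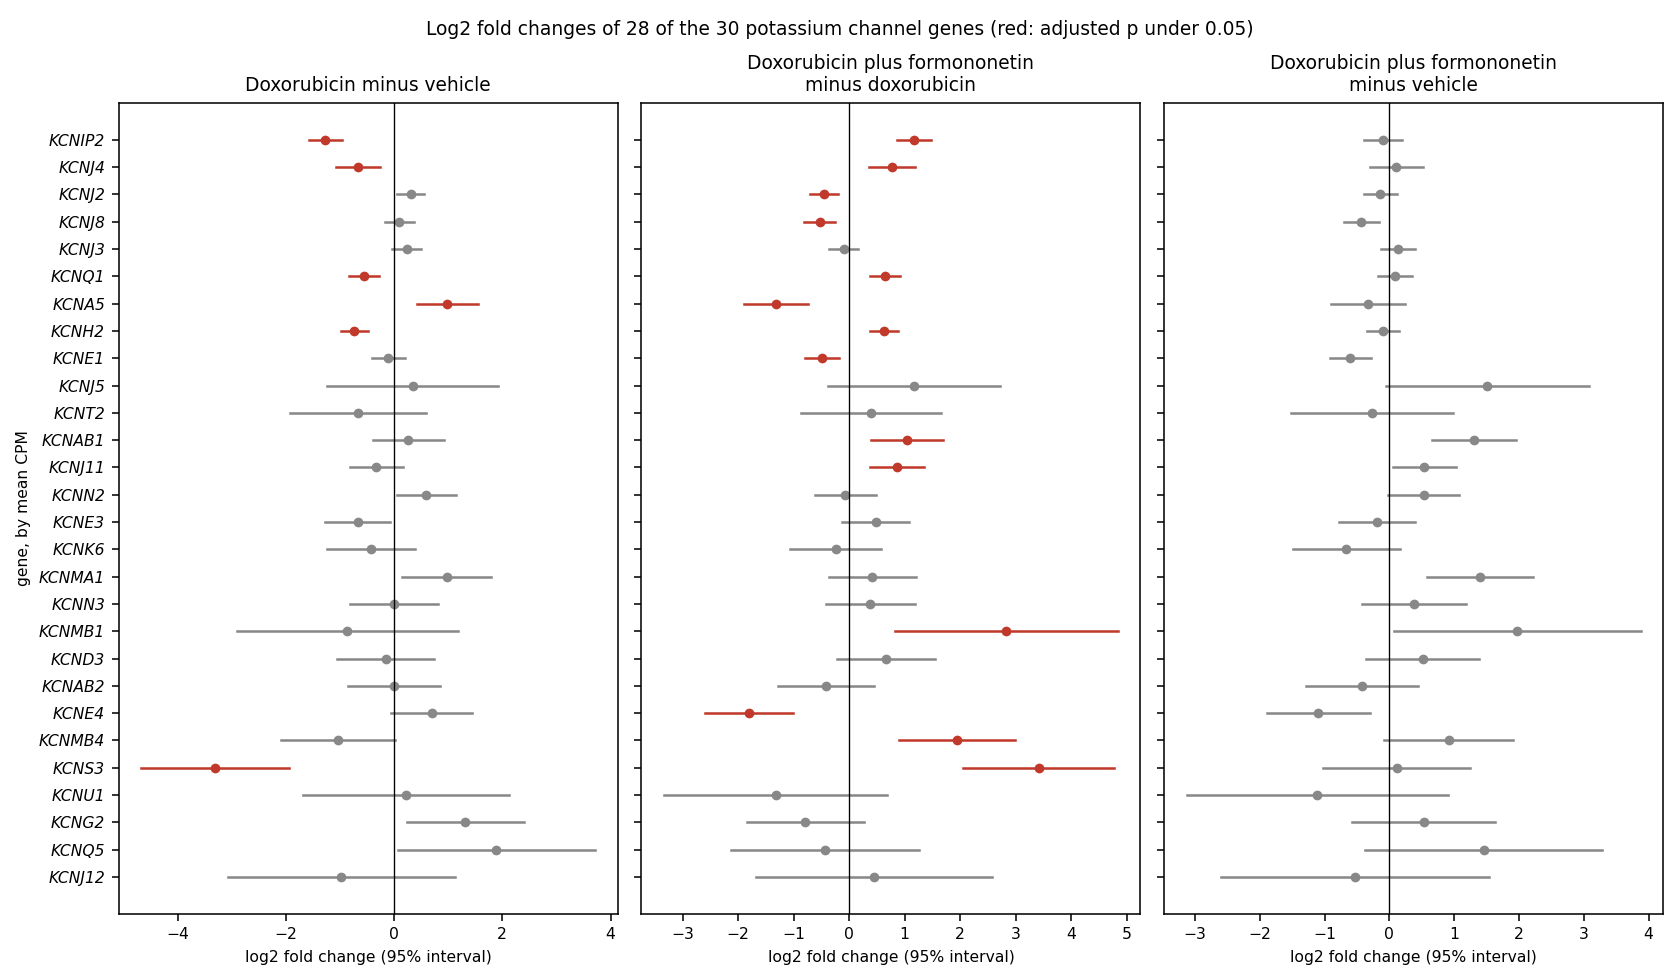
Log2 fold changes with 95% intervals of 28 of the 30 potassium channel genes in the 3 comparisons, ordered by mean CPM, with those past an adjusted p of 0.05 in red. Left, 5 genes fell and KCNA5 rose with doxorubicin; middle, 9 rose and 5 fell in the combination against doxorubicin; right, none passed against vehicle.

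The transient outward current, the early repolarizing current of the action potential, is carried by Kv4 pores (KCND2, KCND3) and Kv1.4 (KCNA4) with the KChIP2 subunit KCNIP2. KCNIP2 (chr14:112857058-112876469, minus strand, Sscrofa11.1) stood at 480, 391 and 353 CPM with vehicle, 145, 176 and 187 with doxorubicin and 402, 366 and 373 in the combination. Every doxorubicin library lay below every other library, and the vehicle and combination ranges overlapped. It fell with doxorubicin to 0.415 of vehicle (log2 fold change -1.27 ± 0.14 SE, adjusted p = 1.15e-04). It rose 2.25-fold in the combination against doxorubicin (1.17 ± 0.14, adjusted p = 2.84e-04). Against vehicle the combination differed by -0.10 on the log2 scale, with a 95% interval from -0.39 to 0.19.

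The Kv4.3 pore KCND3 was low, at 2.68 ± 0.961 CPM with vehicle, 2.41 ± 1.15 with doxorubicin and 3.84 ± 0.857 in the combination, and did not pass in any comparison. Its 95% interval for doxorubicin against vehicle ran from -1.05 to 0.73 on the log2 scale. KCND2 and KCNA4 lay below the minimum, with means of 0.179 and 0.153 CPM over the 9 libraries. KCNE3, a regulatory subunit of several voltage-gated channels, stood at 6.91 ± 0.693, 4.34 ± 1.25 and 6.05 ± 1.78 CPM in vehicle, doxorubicin and combination libraries and did not pass (adjusted p = 0.0813 for doxorubicin against vehicle, and 0.0309 without combination replicate 2).

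The delayed rectifiers end the plateau of the action potential. KCNH2, the hERG pore of the rapid component (chr18:6242826-6279154, plus strand), stood at 69.6, 66.0 and 58.2 CPM with vehicle, 37.1, 42.7 and 36.7 with doxorubicin and 63.0, 54.1 and 63.7 in the combination. The doxorubicin libraries were again the lowest, with no overlap with either other group. It fell with doxorubicin by 0.73 ± 0.12 on the log2 scale (adjusted p = 8.24e-04) and rose in the combination by 0.63 ± 0.12 (adjusted p = 0.00265). Its partner KCNE2 was below the minimum, at 0.518 CPM.

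KCNQ1, the Kv7.1 pore of the slow component (chr2:1675323-1989110, plus strand), stood at 78.4, 79.9 and 72.9 CPM with vehicle, 43.3, 58.8 and 55.2 with doxorubicin and 83.4, 86.8 and 75.4 in the combination. Both comparisons with doxorubicin were without overlap. KCNQ1 fell with doxorubicin by 0.56 ± 0.12 (adjusted p = 0.00556) and rose in the combination by 0.64 ± 0.12 (adjusted p = 0.00347) on the log2 scale.

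KCNE1, the minK subunit that slows KCNQ1 (chr13:198051281-198059444, minus strand), moved differently from its pore. It stood at 57.4, 57.6 and 57.9 CPM with vehicle, 48.3, 53.4 and 58.9 with doxorubicin and 45.3, 38.6 and 30.1 in the combination. The vehicle libraries were nearly level, and the combination libraries were the lowest of the 9. KCNE1 did not pass with doxorubicin (log2 fold change -0.11 ± 0.14, adjusted p = 0.593). It fell in the combination against doxorubicin by 0.49 ± 0.14 (adjusted p = 0.0235). That call was lost with only these 2 groups fitted, or without doxorubicin replicate 2 or 3 or combination replicate 3 (highest adjusted p = 0.079). The combination stood 0.60 ± 0.14 below vehicle on the log2 scale (95% interval -0.91 to -0.29), which did not pass after adjustment (adjusted p = 0.0585).

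KCNA5, the Kv1.5 pore of the ultrarapid delayed rectifier, known mainly from atrium (chr5:65439336-65442207, minus strand), was the one gene that rose with doxorubicin. It stood at 51.5, 26.5 and 52.7 CPM with vehicle, 63.9, 77.2 and 118 with doxorubicin and 34.6, 33.6 and 36.0 in the combination. The doxorubicin libraries were the highest and spread widely, while the combination libraries lay close together (SD 1.19 CPM). The log2 fold change was 0.99 ± 0.26 with doxorubicin (adjusted p = 0.0130) and -1.32 ± 0.26 in the combination against doxorubicin (adjusted p = 0.00413). Without doxorubicin replicate 3 the rise was 0.70 and no longer passed (adjusted p = 0.0609).

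KCNAB1, a Kv beta subunit that binds Kv1 pores (chr13:95981820-96375089, plus strand), stood at 11.2, 6.54 and 7.75 CPM with vehicle, 9.69, 10.2 and 10.8 with doxorubicin and 24.6, 27.1 and 11.2 in the combination. Combination replicates 1 and 2 were high and replicate 3 lay just above the doxorubicin libraries. It rose in the combination by 1.04 ± 0.30 (adjusted p = 0.0230), a call lost without any doxorubicin library or without combination replicate 1 or 2 (highest adjusted p = 0.0759). KCNAB1 overlaps SSR3 on the other strand, a gene with 8829 counts over all libraries against 2005, and no label says whether counting used strand. KCNAB2, the other beta subunit over the minimum, stood at 2.99 ± 0.569, 2.98 ± 1.36 and 2.23 ± 0.293 CPM and did not pass in any comparison.

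KCNE4, a regulatory subunit known to inhibit KCNQ1 and Kv1 channels (chr15:124910708-124915787, plus strand), was low but ordered by group. Its levels were 2.04, 2.40 and 1.89 CPM with vehicle, 3.80, 3.61 and 2.89 with doxorubicin and 1.15, 0.745 and 1.05 in the combination, with no overlap between any pair of groups. It fell in the combination against doxorubicin by 1.80 ± 0.36 on the log2 scale (adjusted p = 0.00432). The differences from vehicle did not pass (0.70 ± 0.34, adjusted p = 0.139 for doxorubicin, 0.0444 without combination replicate 2, and -1.10 ± 0.36, adjusted p = 0.159 for the combination).

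The silent subunits, which form no channel alone and modify Kv2 pores, were also low. KCNS3, encoding Kv9.3 (chr3:119951110-119989541, minus strand), stood at 1.56, 3 and 3.01 CPM with vehicle, 0.496, 0.178 and 0.0614 with doxorubicin and 3.46, 2.18 and 2.55 in the combination. The doxorubicin values rest on 9, 3 and 1 counts, against 26, 50 and 54 with vehicle. It had the largest fitted change of the 30 genes in both comparisons that passed, a fall of 3.30 ± 0.62 with doxorubicin (adjusted p = 0.00230) and a rise of 3.41 ± 0.62 in the combination (adjusted p = 0.00273), on the log2 scale. KCNG2, encoding Kv6.2, stood at 0.646 ± 0.224, 1.62 ± 0.124 and 0.933 ± 0.185 CPM and did not pass (adjusted p = 0.0608 for doxorubicin against vehicle). It passed by DESeq2 (adjusted p = 0.0381), without combination replicate 2 (0.0205 by edgeR) and with only these 2 groups fitted. Only its doxorubicin mean was above 1 CPM, so it entered the 30 genes through the group where it was highest.

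**Figure D3:**
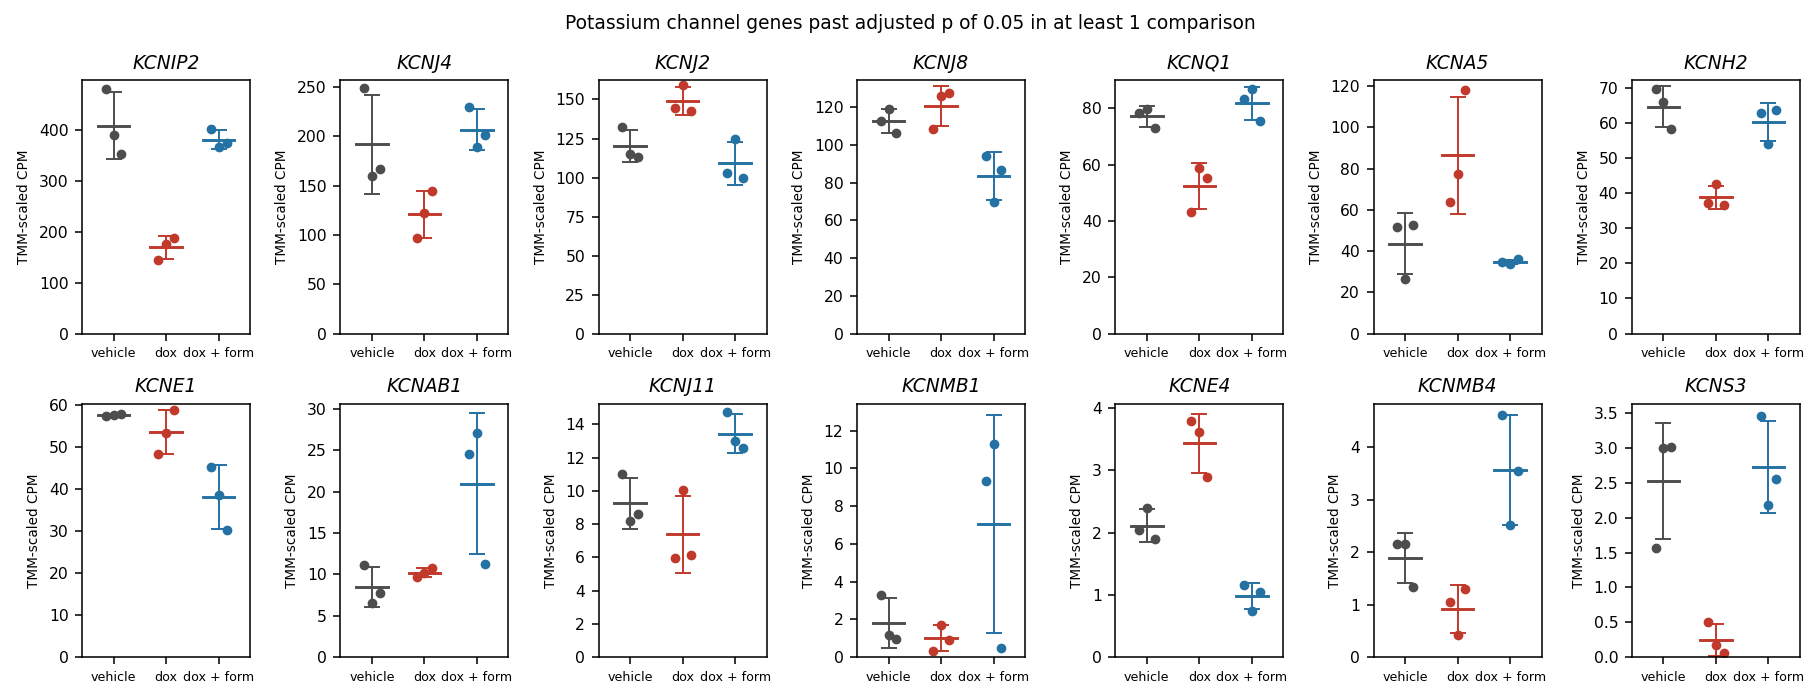
TMM-scaled CPM of the 14 potassium channel genes past an adjusted p of 0.05 in at least 1 comparison, with 1 point per library, a bar at the group mean and whiskers of 1 SD (n = 3). KCNIP2, KCNJ4, KCNQ1, KCNH2 and KCNS3 dip in the doxorubicin libraries, KCNA5 peaks there, and KCNMB1 and KCNAB1 have 2 high combination libraries.

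The inward rectifier current that sets the resting potential comes from Kir2 pores, and its genes did not move together. KCNJ4 (Kir2.3, chr5:9526399-9549290, plus strand) stood at 249, 159 and 166 CPM with vehicle, 96.8, 122 and 144 with doxorubicin and 230, 189 and 201 in the combination. Its doxorubicin libraries were all below the rest. It fell with doxorubicin by 0.66 ± 0.19 (adjusted p = 0.0181) and rose in the combination by 0.77 ± 0.19 (adjusted p = 0.0110) on the log2 scale. Without vehicle replicate 1, its highest library, the fall was 0.42 and did not pass (adjusted p = 0.0864), and the call was also lost without doxorubicin replicate 1 or 2.

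KCNJ2 (Kir2.1, the pore best known for this current in ventricle, chr12:10351959-10380631, minus strand) stood at 132, 115 and 113 CPM with vehicle, 145, 159 and 143 with doxorubicin and 103, 125 and 99.7 in the combination. The doxorubicin libraries were the highest, without overlap. With doxorubicin the log2 fold change was 0.31 ± 0.12 and did not pass (adjusted p = 0.0600). It passed under 5 of 15 alternatives, which were DESeq2 (adjusted p = 0.0315), only these 2 groups fitted, and edgeR without vehicle replicate 1 or combination replicate 2 or 3. It fell in the combination against doxorubicin by 0.45 ± 0.12 (adjusted p = 0.0151), a call lost without doxorubicin replicate 2 or combination replicate 1 (highest adjusted p = 0.0576). KCNJ12 (Kir2.2) stood at 1.42 ± 1.01, 0.717 ± 0.288 and 0.985 ± 0.859 CPM, with 0 counts in combination replicate 2, which allows up to 0.172 CPM (3 counts, counting error only).

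ATP-sensitive channels open when ATP falls and pair a Kir6 pore with a sulfonylurea receptor. KCNJ8 (Kir6.1, known from vascular smooth muscle and pericytes as well as heart, chr5:51695927-51704402, plus strand) stood at 113, 119 and 106 CPM with vehicle, 108, 126 and 128 with doxorubicin and 94.3, 69.6 and 86.6 in the combination. Only the combination libraries stood apart, below all others. KCNJ8 fell in the combination against doxorubicin by 0.53 ± 0.13 (adjusted p = 0.00969), and against vehicle the difference of -0.43 ± 0.13 did not pass (adjusted p = 0.113).

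KCNJ11 (Kir6.2, the pore of the heart muscle cell's ATP-sensitive channel, chr2:41756637-41760340, plus strand) moved the other way. It stood at 11, 8.16 and 8.58 CPM with vehicle, 5.95, 10.1 and 6.14 with doxorubicin and 14.8, 13 and 12.6 in the combination, whose libraries were the highest. It rose in the combination against doxorubicin by 0.87 ± 0.22 (adjusted p = 0.0152), a call lost without doxorubicin replicate 1 or 3 or combination replicate 1 (highest adjusted p = 0.0646). Of the receptors, ABCC9 (SUR2) stood at 205 ± 7.68 CPM with vehicle, 163 ± 32.9 with doxorubicin and 166 ± 42.9 in the combination and did not pass. ABCC8 (SUR1) rose in the combination against doxorubicin (3.47 ± 0.94, adjusted p = 0.0182) from 0.116 ± 0.0583 to 1.36 ± 0.926 CPM, near the limit of detection at 0.11, 0.177 and 0.0614 CPM with doxorubicin. That call was lost by limma-voom, with only these 2 groups fitted, and without doxorubicin replicate 1 or 3 or combination replicate 1.

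The acetylcholine-activated current of atrium and nodes uses KCNJ3 and KCNJ5 (Kir3.1 and Kir3.4). KCNJ3 stood at 83.0, 83.0 and 81.2 CPM with vehicle, 89.8, 115 and 85.5 with doxorubicin and 90.7, 84.0 and 96.3 in the combination. Its vehicle libraries lay below all others, without overlap, but no comparison passed (adjusted p = 0.164 for doxorubicin and 0.618 for the combination against vehicle). KCNJ5 varied within groups more than between them, at 19.1, 12.2 and 16.6 CPM with vehicle, 4.57, 30.4 and 25.9 with doxorubicin and 64.2, 65.7 and 6.61 in the combination. Its lowest values were those of doxorubicin replicate 1 and combination replicate 3, and its log2 fold changes had standard errors of 0.71 to 0.72. It passed in the combination against doxorubicin only without combination replicate 3 (1.68 on the log2 scale).

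Among calcium-activated channels, KCNMB1 and KCNMA1 were highest in combination replicates 1 and 2. KCNMB1, the beta 1 subunit of the large-conductance channel, known from smooth muscle (chr16:53616532-53631197, plus strand), stood at 3.30, 1.14 and 0.947 CPM with vehicle, 0.330, 1.72 and 0.922 with doxorubicin and 9.36, 11.3 and 0.458 in the combination. Combination replicates 1 and 2 were high and replicate 3 lay inside the doxorubicin range, so the groups overlapped. It rose in the combination against doxorubicin by 2.83 ± 0.92 (adjusted p = 0.0391), a call lost under 10 of 15 alternatives (highest adjusted p = 0.302). Among them were limma-voom, only these 2 groups fitted, and edgeR without combination replicate 1 or 2 or any 1 doxorubicin library. It overlaps KCNIP1 on the other strand (61 counts against 499 over all libraries). Its pore KCNMA1 stood at 1.56, 1.98 and 2.23 CPM with vehicle, 3.97, 3.73 and 3.69 with doxorubicin and 6.38, 6.42 and 2.36 in the combination, and did not pass by edgeR in any comparison (adjusted p = 0.0654 for doxorubicin and 0.0923 for the combination against vehicle). DESeq2 called both (adjusted p = 0.0480 and 0.0205). By edgeR the first passed without combination replicate 2 or 3 or with only these 2 groups fitted, and the second without combination replicate 3.

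KCNMB4, the beta 4 subunit known from brain (chr5:34561990-34634241, plus strand), stood at 2.16, 2.16 and 1.34 CPM with vehicle, 1.05, 0.414 and 1.29 with doxorubicin and 4.62, 2.52 and 3.54 in the combination. It rose in the combination against doxorubicin by 1.95 ± 0.48 (adjusted p = 0.0115), and all 3 combination libraries were above all others. Among small-conductance channels, KCNN2 stood at 5.40 ± 1.33, 8.16 ± 1.61 and 7.78 ± 1.66 CPM and KCNN3 at 3.25 ± 0.912, 3.24 ± 1.02 and 4.23 ± 1.71 CPM, and neither passed. KCNN3 overlaps PMVK on the same strand, which had 1024 counts against 546, so its counts are uncertain. KCNN1, KCNN4 and KCNMB2 lay below the minimum, with means of 0.130, 0.0852 and 0.147 CPM.

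Leak channels were nearly absent from the set. KCNK6 alone of its family reached the minimum, at 6.89 ± 3.54, 5.15 ± 1.13 and 4.35 ± 1.36 CPM, and did not pass. The acid-sensitive KCNK3 and the stretch-activated KCNK2, both described in heart, had means of 0.125 and 0.324 CPM. The remaining genes over the minimum did not pass in any comparison over all 9 libraries, among them KCNT2, a sodium-activated channel on an unplaced scaffold (17.8 ± 9.22, 11.2 ± 8.91 and 14.9 ± 9.03 CPM), KCNQ5 (0.412 ± 0.220, 1.55 ± 0.828 and 1.13 ± 1.13) and KCNU1, known from sperm (1.24 ± 0.330, 1.44 ± 0.580 and 0.582 ± 0.759). KCNQ5 passed as higher with doxorubicin without combination replicate 2 (adjusted p = 0.0291) or with only these 2 groups fitted. Its vehicle mean was below 1 CPM, and it reached the minimum through the other groups. KCNU1 passed in the combination against doxorubicin without combination replicate 3.

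Ratios of partner subunits within a library do not depend on how libraries are scaled. Ratios of counts per length were formed for 7 pairs, chosen after the values were seen, and compared on the log2 scale by a two-sided exact permutation test, 21 tests in all. With 3 against 3 libraries the smallest p is 0.1, so no ratio could pass, and the smallest adjusted p was 0.233. KCNE1 per KCNQ1 was 5.03, 4.95 and 5.45 with vehicle, 7.65, 6.24 and 7.33 with doxorubicin and 3.73, 3.05 and 2.74 in the combination. These 3 groups did not overlap in any pair (exact p = 0.1 each, adjusted 0.233).

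KCNJ2 per KCNJ4 was 0.109, 0.149 and 0.140 with vehicle, 0.307, 0.268 and 0.204 with doxorubicin and 0.0921, 0.136 and 0.102 in the combination. The doxorubicin libraries were all the highest (exact p = 0.1), and vehicle and combination overlapped. KCNJ8 per KCNJ11 was 15.2, 21.5 and 18.3 with vehicle, 27.0, 18.5 and 30.7 with doxorubicin and 9.44, 7.90 and 10.2 in the combination. Here the combination libraries were the lowest, apart from both other groups (exact p = 0.1 each). KCNAB1 per KCNA5 was highest in the combination, at 0.235 ± 0.101 against 0.0785 ± 0.0197 with vehicle and 0.0482 ± 0.012 with doxorubicin, and its libraries overlapped neither. For KCNIP2 per KCND3, KCNJ5 per KCNJ3 and KCNMB1 per KCNMA1 all groups overlapped.

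**Figure D4:**
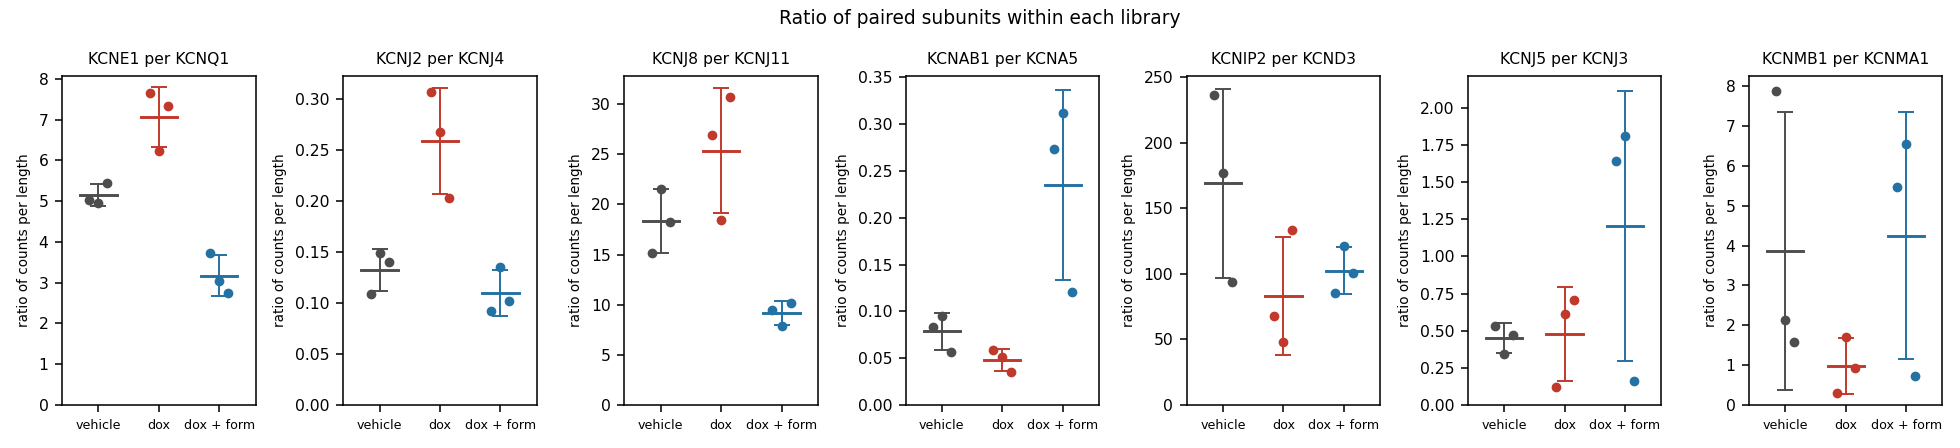
Ratio of counts per length of 7 pairs of potassium channel subunits within each library, with 1 point per library, the group mean and 1 SD (n = 3). KCNE1 per KCNQ1 separates the 3 groups, from 2.74 to 3.73 in the combination up to 6.24 to 7.65 with doxorubicin.

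Marker lists of cell types were read against the 33.3% of all genes that passed with doxorubicin and the 28.1% that passed in the combination against doxorubicin. Of 10 heart muscle cell markers 8 fell and 1 rose with doxorubicin, and 6 rose in the combination against doxorubicin (median log2 fold changes -0.54 and 0.43). Their summed level was 64470 to 70630 CPM with vehicle, 46070 to 51460 with doxorubicin and 57580 to 59860 in the combination. The 6 ventricular markers fell in 4 cases with doxorubicin, from a summed 47260 to 54650 CPM down to 31960 to 38280, and MYL3 alone rose in the combination (38480 to 42580). The part of these shifts in the falls of KCNIP2, KCNH2, KCNQ1 and KCNJ4 was not tested.

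Beside KCNA5, atrial markers went both ways. With doxorubicin PAM and DKK3 rose and the atrial light chain MYL7 fell among 8 tested of 10, and in the combination against doxorubicin MYL7 and NR2F1 rose and PAM and DKK3 fell. The summed atrial level overlapped between vehicle (1664 to 2274 CPM), doxorubicin (1701 to 1984) and the combination (1158 to 1800). Median log2 fold changes of the list were -0.41 with doxorubicin and -0.69 in the combination against doxorubicin. Over all genes they were -0.002 and -0.01. Of the 10 listed markers, BMP10 had 2 counts over all 9 libraries together. The part of chamber content in the KCNA5 rise, or in its fall in the combination against doxorubicin, was not tested.

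Smooth muscle and pericyte markers were high in the same combination libraries as KCNMB1, KCNMA1 and KCNAB1. Their summed level over 12 markers was 1328, 1013 and 978.8 CPM with vehicle, 911.4, 994.3 and 1021 with doxorubicin and 2080, 1962 and 1079 in the combination. MYH11, the smooth muscle myosin, stood at 411, 346 and 56.8 CPM in the combination, and ACTA2 at 394, 337 and 75.8. Of the 12 markers 1 rose and 5 fell with doxorubicin, and 6 rose in the combination against doxorubicin. Schwann cell and neuron markers were also highest in combination replicates 1 and 2 (124.6 and 161.2 CPM summed over 12 markers, against 43.91 to 75.12 in the other 7 libraries), with TH at 0 counts in all libraries. Of 8 tested, 6 rose and 1 fell in the combination against doxorubicin, while 2 fell with doxorubicin. In the combination against vehicle 4 rose, where 0.956% of all genes did. Fibroblast markers were highest in combination replicates 1 and 2 too, at 4479 and 5244 CPM summed, against 2051 to 3793 in the other 7 libraries. KCNMB4 did not share this order, with 4.62, 2.52 and 3.54 CPM in the combination. The part of these cells in the rises of KCNMB1, KCNAB1 and KCNMB4 was not tested.

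**Figure D5:**
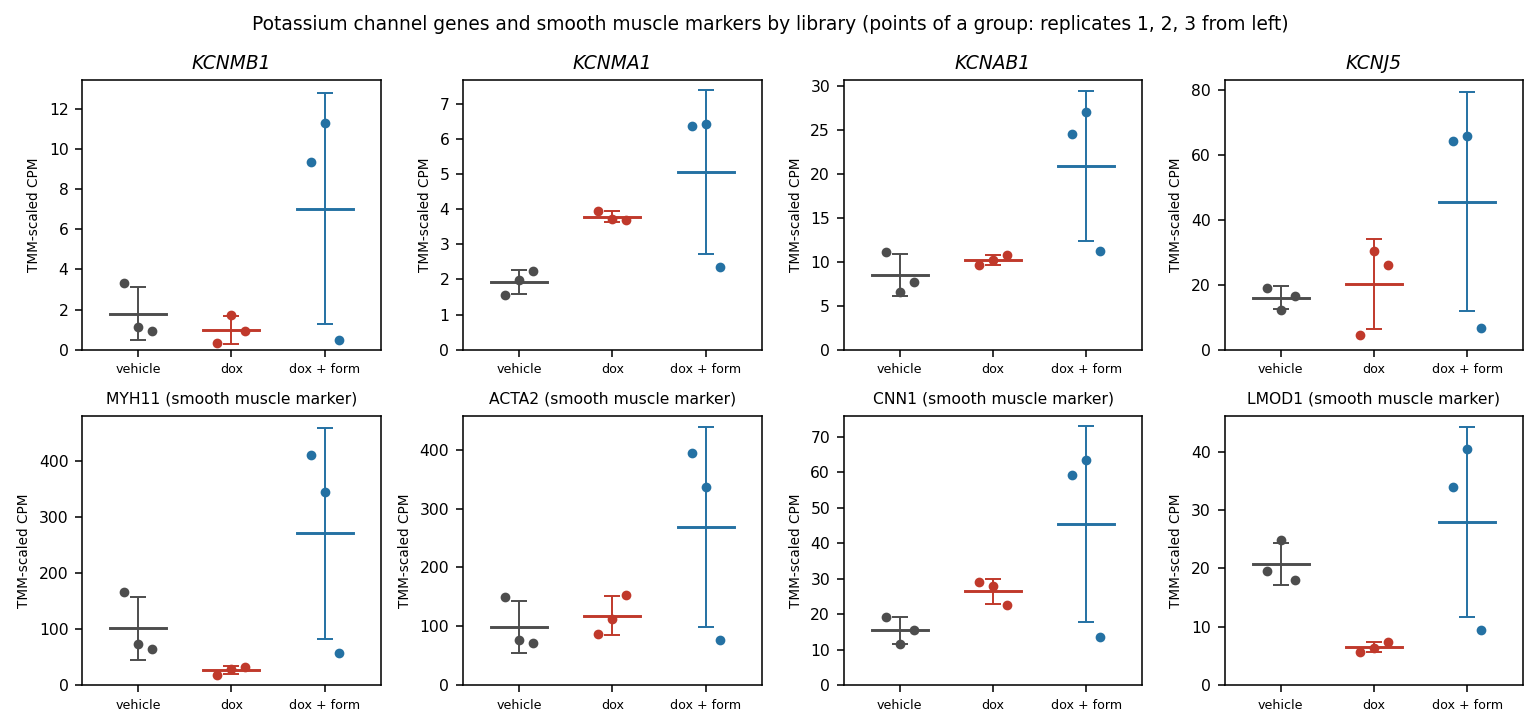
TMM-scaled CPM of 4 potassium channel genes (top) and 4 smooth muscle markers (bottom) by library, with the group mean and 1 SD (n = 3). In all 8 panels combination replicate 3 lies below combination replicates 1 and 2, KCNMB1 at 9.36, 11.3 and 0.458 CPM. The 4 markers are from a list of 12 and were named after their values were seen. KCNJ8 (94.3, 69.6 and 86.6 CPM) and KCNMB4 (4.62, 2.52 and 3.54), not shown, were lowest in replicate 2 within the combination.

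By direction, 17.0% of all genes fell and 16.3% rose with doxorubicin. In the combination against doxorubicin 14.7% rose and 13.5% fell. Endothelial and fibroblast markers lay above the matching share in both comparisons. So did the falls of adipocyte markers with doxorubicin and of macrophage and monocyte markers in the combination. These lists are short, and none was tested as a set. Endothelial markers fell in 4 of 10 cases with doxorubicin and rose in 3 in the combination against doxorubicin (summed 1131 to 1601, 974.7 to 1147 and 1316 to 1472 CPM in vehicle, doxorubicin and combination libraries). Fibroblast markers fell in 3 of 8 cases and rose in 3 (2144 to 3793, 2051 to 2943 and 2324 to 5244 CPM). Macrophage and monocyte markers rose in 2 of 10 cases with doxorubicin and fell in 3 in the combination (178.8 to 313.0, 329.0 to 354.6 and 254.2 to 289.3 CPM). Lymphocyte markers rose in 1 of 7 cases with doxorubicin and none passed in the combination (33.13 to 52.86, 50.57 to 67.02 and 44.07 to 60.25 CPM). Adipocyte markers fell in 4 and rose in 1 of 7 cases with doxorubicin, and 1 rose in the combination against doxorubicin (217.2 to 257.5, 173.4 to 228.6 and 168.1 to 245.4 CPM). In the combination 1 adipocyte marker was lower than with vehicle, where 0.808% of all genes were.

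Partners of potassium channels without a KCN symbol were followed as a list of 17 genes, of which 14 were tested. With doxorubicin 2 rose and 2 fell, where 16.3% of all genes tested rose and 17.0% fell. CALM2 (0.72 ± 0.12), which encodes calmodulin, the calcium sensor of small-conductance and KCNQ channels, was among those that rose, and CALM3 (-0.40 ± 0.10), which encodes the same protein, among those that fell. The median log2 fold change of the list was -0.04, against -0.002 over all genes tested. In the combination against doxorubicin 3 rose and 2 fell, among them ABCC8 upwards and CALM2 (-0.50 ± 0.12) and NEDD4L (-0.46 ± 0.13), a ubiquitin ligase of ion channels, downwards. The CALM3 fall was lost without doxorubicin replicate 1 and the NEDD4L fall without doxorubicin replicate 2 or with only these 2 groups fitted. The median there was 0.22, against -0.01 over all genes, of which 14.7% rose and 13.5% fell. Against vehicle none of the 14 passed by the edgeR quasi-likelihood test (1.76% of all genes), and 2 did by DESeq2 (5.04%). The Kv4 partner DPP6 stood at 0.646 ± 0.224 CPM with vehicle and did not pass, and DPP10 had 3 counts over all libraries.

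Of 10 listed transcription factors of repolarization genes, TBX20 (0.77 ± 0.12) and MEF2C (0.51 ± 0.11) rose and IRX4 (-1.27 ± 0.29), a ventricular homeobox factor, and NKX2-5 (-0.31 ± 0.10) fell with doxorubicin, with a list median of -0.27 against -0.002 over all genes. The NKX2-5 call was lost under 8 of 15 alternatives, those without any 1 vehicle library, doxorubicin replicate 1 or 2 or combination replicate 1 among them. Of all genes tested 16.3% rose and 17.0% fell with doxorubicin, and 14.7% rose and 13.5% fell in the combination against it. In the combination against doxorubicin TBX20 (-0.46 ± 0.12) and MEF2C (-0.39 ± 0.11) fell. KLF15, which is known in mouse to control Kcnip2, rose (0.49 ± 0.17, adjusted p = 0.0495), and the list median was -0.01, as over all genes. KLF15 stood at 22.9, 22.5 and 18.7 CPM with vehicle, 21.1, 21.5 and 23.4 with doxorubicin and 30.9, 38.1 and 23.3 in the combination, so the last 2 groups overlapped. The KLF15 call was lost under 12 of 15 alternatives, limma-voom and the fits without any 1 doxorubicin or vehicle library or combination replicate 1 or 2 among them. That of MEF2C was lost under 5, including without combination replicate 2, and that of TBX20 under 2, without doxorubicin replicate 2 or combination replicate 1. IRX5, a repressor of the Kv4.2 gene in mouse, ranged from 0.229 to 24.6 CPM and did not pass. Against vehicle none of the 10 passed in the combination, where 1.76% of all genes did.

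Channels of inward current and the sodium calcium exchanger were set beside the outward channels in a list of 21 genes, 18 of them tested. With doxorubicin 4 rose and 2 fell, where 16.3% of all genes tested rose and 17.0% fell. The calcium channel subunit CACNA2D1 (0.65 ± 0.14) rose, and the L-type calcium pore CACNA1C (-0.57 ± 0.15) and TRPM4 (-0.53 ± 0.13), a calcium-activated cation channel, fell. In the combination against doxorubicin 2 rose and 4 fell, where 14.7% of all genes rose and 13.5% fell. The T-type calcium pore CACNA1H (1.05 ± 0.28) rose, and CACNA2D1 (-0.56 ± 0.14) and the sodium channel subunit SCN3B (-3.54 ± 0.75) fell. SCN3B ranged from 44.6 to 241 CPM with doxorubicin. The CACNA1C fall was lost without vehicle replicate 2, the CACNA1H rise without doxorubicin replicate 3 or combination replicate 1, and the later CACNA2D1 fall without doxorubicin replicate 1 or 2. List medians were -0.002 with doxorubicin, equal to that of all genes, and -0.16 against -0.01 in the combination against doxorubicin. None of the 18 passed against vehicle, where 1.76% of all genes did. By DESeq2 2 passed, where 5.04% of all genes did.

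Potassium is brought back into the cell by the sodium pump and by cotransporters. Of 10 tested genes, the pump beta subunits ATP1B3 (1.11 ± 0.11) and ATP1B1 (0.82 ± 0.12) rose with doxorubicin, and 2 fell, among them the cotransporter SLC12A7 (-0.39 ± 0.12). In the combination against doxorubicin 3 rose and 2 fell, among them ATP1B2 (1.09 ± 0.32) upwards and ATP1B1 (-0.68 ± 0.12) and ATP1B3 (-0.50 ± 0.11) downwards. ATP1B2 stood at 7.71, 8.29 and 6.45 CPM with doxorubicin and 11.2, 26.2 and 10.5 in the combination, and its call was lost without combination replicate 2 or any 1 doxorubicin library, or with only these 2 groups fitted. The fall of SLC12A7 with doxorubicin was lost without vehicle replicate 1 or 3 or doxorubicin replicate 1 or 3. List medians were -0.02 and 0.02, against -0.002 and -0.01 over all genes. Of all genes tested 16.3% rose and 17.0% fell with doxorubicin, and 14.7% rose and 13.5% fell in the combination against it. In the combination against vehicle 1.76% passed. ATP1B3 stood at 21, 19.3 and 23.9 CPM with vehicle, 49.4, 44.4 and 44.4 with doxorubicin and 32.5, 31.7 and 33.7 in the combination, and the 3 groups did not overlap. It was the one gene of these 4 lists that passed in the combination against vehicle (0.61 ± 0.11, adjusted p = 0.0220), a call lost without any 1 vehicle library or combination replicate 1.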

How the data were processed

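The authors deposited 1 table of raw counts per gene for 9 libraries, with gene lengths and coordinates. Gene length is also the authors' own column. Per the labels' protocols, total RNA was purified with RNeasy columns and 2 µg went into a SMARTER mRNA-Seq library. No source used here names the aligner, the counting program or its use of strand. Symbols and start positions matched RefSeq's Sscrofa11.1 for all 30 potassium channel genes. Chromosome names were taken from RefSeq, and gene ends and strands were not compared.

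Counts were analysed in R 4.3.3 with edgeR 4.0.16. The filterByExpr function (minimum count 10) left 14846 of 30942 genes. Libraries were scaled by TMM, 1 mean per group was fitted to all 9, and pairs of groups were compared by the quasi-likelihood F-test with Benjamini-Hochberg adjustment over all genes tested. Standard errors are the absolute log2 fold change over the square root of F, and intervals use the fit's degrees of freedom. DESeq2 1.42.0 and limma 3.58.1 (voom) were alternatives. The fit was tried on simulated counts of 14846 genes for doxorubicin against vehicle. In these 83 genes changed 1.5-fold, 58 changed 2-fold and 59 changed 4-fold. The fit recovered 9.64%, 48.3% and 79.7% of them, and 5.68% of its calls were false. In the data 4947 genes passed, so the simulation held far fewer changes, and its recovery rates may not apply to the data.

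All genes over the minimum that passed in any comparison, and the members of listed cardiac currents, are named. From the other lists, those that passed are named, up to the 4 with the smallest p. ABCC9, DPP6, DPP10, IRX5 and the single cell markers were named after their values were seen. The genes and lists were chosen with earlier results of these data known. Of 211 list entries 210 matched by symbol. Replicate numbers were not used as pairs in the main fit. Some genes that the rule names are not reported here, and the figures leave them out too.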

Additional observations from a re-analysis of the deposited data

How the results depend on the processing

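Of the 20 gene calls, 272 of 300 values under other settings passed in the same direction, 28 lost the call and none reversed. Of the 70 results not called, 13 passed under at least 1 alternative. Of the 30 genes 14 lay under 5 CPM. For doxorubicin against vehicle the 6 calls became 12 when only the 6 libraries of the pair were fitted, and ranged from 5 to 12 when 1 library was left out (12 without combination replicate 2, 5 without doxorubicin replicate 2 or 3). Of all genes 45.6% passed with the pair alone and 43.8% without combination replicate 2. Without doxorubicin replicate 2 or 3 the shares were 24.8% and 25.9%. The 14 calls of the combination against doxorubicin ranged from 10 to 15 with 1 library left out, where 18.4% to 29% of all genes passed. For the combination against vehicle the 0 calls became 4 by DESeq2, 2 with no filter and 0 to 3 with 1 library left out. The shares of all genes were 5.04%, 2.12% and 0.42% to 3.04%. A member minimum of 0.5 or 2 CPM gave 6 and 5, 14 and 13, and 0 calls.

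Correlations of same-numbered samples' deviations from their group means ranged from -0.289 to 0.067. No strong positive correlation by number was seen, but 3 libraries per group cannot exclude a pairing or shared batch. With the replicate block the counts were 6, 13 and 0, and the call of KCNMB1 was lost.

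The partner list went from 5 to 2 calls in the combination against doxorubicin when only that pair was fitted (3 to 4 with 1 library left out) and from 0 to 2 against vehicle by DESeq2 (0 to 1). The transcription factors went from 3 to 5 by DESeq2 (0 to 5) in the combination against doxorubicin, and from 0 to 2 against vehicle with 1 library left out. Inward channels ranged from 3 to 6 around 6 with doxorubicin, from 3 to 9 in the combination against doxorubicin, and went from 0 to 2 against vehicle by DESeq2 (0 to 1). Pumps went from 5 to 3 in the combination against doxorubicin when only that pair was fitted (3 to 5), and from 1 to 0 against vehicle with that pair alone or with the replicate block (0 to 2). These list settings and the ratio checks were chosen after seeing the data, and the cause was not tested.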
